A study of Oryza sativa with 6 samples.

Results

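The genes described here are 9 rice genes of sucrose metabolism, taken by gene identifier from a named list out of the 91180 features that were counted. They are 4 sucrose phosphate synthases (SPS1, SPS6, SPS8 and SPS11), the cytosolic fructose-1,6-bisphosphatase (cFBPase) and 4 sucrose synthases (SUS1, SUS2, SUS3 and SUS4). Their mRNA was measured by RNA sequencing in flag leaves of the rice cultivar ZhongHua11. OsRUS1-OX plants, 1 transgenic line that overexpresses OsRUS1 fused to GFP in the ZhongHua11 background, were compared with ZhongHua11 wild type (WT). Plants of both genotypes were field grown and sampled at the heading stage at 11 h on a sunny summer day, when the OsRUS1-OX leaves were rolled and the WT leaves were expanded. Each genotype had 3 libraries, and each library came from leaves of 3 plants that were collected and pooled separately. Genotype and leaf state cannot be told apart in this design, and the promoter of the transgene was not given in the sources used here.

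Sucrose is made in the cytosol of leaf mesophyll cells from triose phosphates that leave the chloroplast by day. cFBPase makes fructose 6-phosphate there, sucrose phosphate synthase joins it to UDP-glucose, and sucrose phosphate phosphatase removes the phosphate to give sucrose. Sucrose is split again by sucrose synthase, which returns UDP-glucose and fructose and is known from phloem and sink tissues, or by invertases, which give glucose and fructose in the cell wall, the vacuole or the cytosol.

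The libraries held 8759812 to 13532579 counted reads, so that 3 counts corresponded to 0.222 to 0.342 CPM, the usual unit of counts scaled by library total. The feature described as OsRUS1, OS04G0290800, averaged 5343 ± 1673 normalized counts in OsRUS1-OX and 105 ± 22.95 in WT (SD, n = 3 each), where normalized counts are counts scaled to equal effective library size. Of 19694 features with enough counts to be tested, 23.6% passed an adjusted p of 0.05 between OsRUS1-OX and WT in edgeR's quasi-likelihood test, 11.8% higher and 11.8% lower in OsRUS1-OX. All 7 mesophyll marker genes were measured, 1 called higher and 2 called lower, and their summed level ranged from 474086 to 515417 normalized counts in OsRUS1-OX and from 504287 to 637291 in WT. The single root marker had 0 reads, markers of secondary walls had at most 24 reads in any library, and those of endosperm had at most 41. The single guard cell marker had 11 to 42 reads and was not called. The single phloem marker was called higher in OsRUS1-OX. In whole leaves, fewer cells of a type and less RNA per cell cannot be told apart.

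WT replicate 2 was an extreme among the WT libraries for these genes. It was the lowest WT library for SPS1, SPS8 and cFBPase and the highest for SPS11, SUS2 and SUS4, and it was in the middle for 0 of the 6 members that could be tested. Any of 3 libraries is often an extreme, and the share of all features with WT replicate 2 as an extreme was not counted. Over all features, its squared correlation of log FPKM with the other WT libraries was 0.963 and 0.964, against 0.971 between those. Its position is therefore not shown to be particular to these genes. Its level was 0.393 times the mean of the other WT libraries for SPS1, 0.629 times for cFBPase and 0.759 times for SPS8. For SUS2 it was 2.21 times, for SUS4 2.18 times and for SPS11 1.42 times that mean. Fold changes, shares and spreads that move with this library are therefore given with and without it. It was singled out from these same values, so a call gained without it is no further result. Over all features, 5219 of 20142 tested were called without it, beside 4644 of 19694 with all libraries.

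Of the 9 members, 6 had enough counts to be tested, and 1 of them, cFBPase, was called, lower in OsRUS1-OX. That is 16.7% of the tested members against 23.6% of all tested features. The other 5 did not pass the adjusted threshold, and 4 of the 6 had an unadjusted p under 0.05, which 36.4% of all tested features had. The fitted change was above 0 for 3 members and below 0 for 3, with a median log2 fold change of -0.14, beside -0.01 over all tested features. The genotypes did not overlap in 3 of the 6 tested members (cFBPase, SPS11 and SUS4), which was the case for 42.4% of all tested features. Of these, SUS4 was higher in OsRUS1-OX, as were 21.2% of all tested features without overlap, and cFBPase and SPS11 were lower, as were 21.3%.

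**Figure D1:**
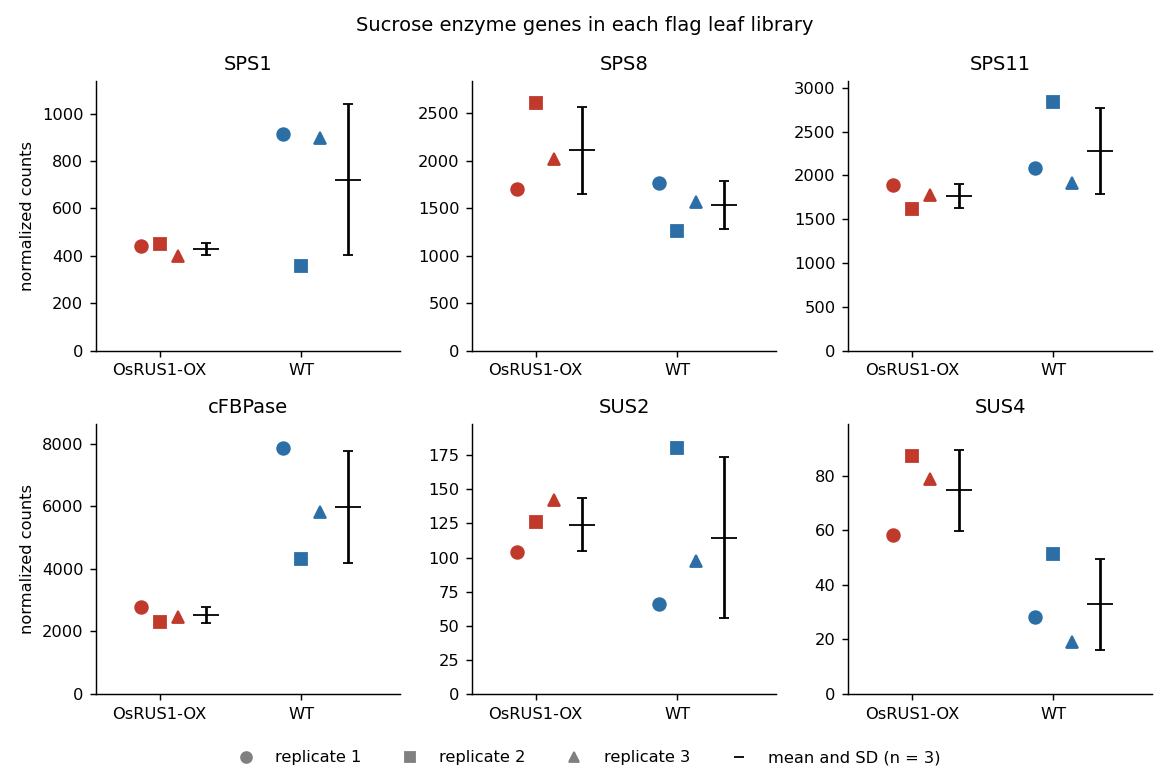
Normalized counts of the 6 tested members in each of the 6 libraries, with OsRUS1-OX left of WT in each panel. Points are libraries (the marker shape gives the replicate) and bars are mean and SD of 3 libraries. The cFBPase panel shows 2309 to 2789 in OsRUS1-OX and 4299 to 7859 in WT, and the SPS1 panel shows the low WT replicate 2.

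Among the synthesis enzymes, cFBPase (OS01G0866400) fell in OsRUS1-OX. This enzyme takes the phosphate off position 1 of fructose 1,6-bisphosphate and is a known control point of the path to sucrose. Its normalized counts were 2789, 2309 and 2473 in OsRUS1-OX, against 7859, 4299 and 5808 in WT. All 3 OsRUS1-OX libraries lay below all 3 WT libraries, and the OsRUS1-OX libraries lay closer together. The mean was 2524 ± 244 in OsRUS1-OX and 5989 ± 1787 in WT (SD, n = 3 each). The OsRUS1-OX level was 0.421 times the WT level, a log2 fold change of -1.25 (SE 0.22, 95% interval -1.75 to -0.74), and its adjusted p in edgeR was 0.0063. The size of this change was at percentile 89.3 of all tested features.

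The fall of cFBPase passed the threshold under each of the 15 other settings that were run, with log2 fold changes of -1.44 to -1.01. Without WT replicate 2 the log2 fold change was -1.44, and without WT replicate 1, the highest library, it was -1.01. Beside it, OS12G0292400, a small subunit of Rubisco and 1 of the 7 mesophyll markers, had 1894, 1692 and 1800 normalized counts in OsRUS1-OX and 5447, 3658 and 3027 in WT (log2 fold change -1.17, adjusted p = 0.0073 in edgeR). OS01G0600900, a light-harvesting chlorophyll-binding protein on the same marker list, moved the other way, at 58820, 53600 and 63680 in OsRUS1-OX and 33070, 27320 and 26020 in WT (log2 fold change 1.03, adjusted p = 0.0059 in edgeR). The part of the mesophyll cells in the cFBPase result was not tested.

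Of the 4 sucrose phosphate synthases among the members, 3 were expressed and 1 had no reads. SPS1 (OS01G0919400) had 440, 448 and 400 normalized counts in OsRUS1-OX, against 912, 355 and 896 in WT. The WT libraries were split, with replicate 2 below all OsRUS1-OX libraries and the other WT libraries well above them. The mean was 429 ± 26.1 in OsRUS1-OX and 721 ± 317 in WT (SD, n = 3 each). The log2 fold change was -0.75 (SE 0.32, 95% interval -1.48 to -0.01), and the adjusted p in edgeR was 0.13. Without WT replicate 2 it was -1.08 with an adjusted p of 0.0017 in edgeR, and no other left-out library brought it past the threshold. The low value of SPS1 in that library is part of why it was singled out, so this call is no further result. The interval of SPS1, like the others given here, is not adjusted for the number of features tested.

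SPS8 (OS08G0301500) had 1706, 2610 and 2015 normalized counts in OsRUS1-OX, against 1762, 1263 and 1565 in WT. The genotypes overlapped, since OsRUS1-OX replicate 1 lay below WT replicate 1. The mean was 2110.1 ± 459.9 in OsRUS1-OX and 1530 ± 251 in WT (SD, n = 3 each). The log2 fold change was 0.46 (SE 0.19, 95% interval 0.02 to 0.91) with an adjusted p of 0.12 in edgeR. It stayed short of the threshold under all 15 other settings, and without WT replicate 2 it was 0.34.

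SPS11 (OS11G0236100) had 1889, 1620.1 and 1783 normalized counts in OsRUS1-OX, against 2087, 2843 and 1917 in WT. All OsRUS1-OX libraries lay below all WT libraries, but only by a small step between OsRUS1-OX replicate 1 and WT replicate 3. The mean was 1764 ± 135 in OsRUS1-OX and 2282 ± 493 in WT (SD, n = 3 each). The log2 fold change was -0.37 (SE 0.17, 95% interval -0.76 to 0.01) with an adjusted p of 0.15 in edgeR, and without WT replicate 2 it was -0.18. SPS6 (OS06G0634800) had 0 reads in all 6 libraries, out of 70116146 counted reads. A count of 0 allows a level of up to 0.0773 CPM over the OsRUS1-OX libraries and 0.0958 over the WT libraries, for counting error only.

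**Figure D2:**
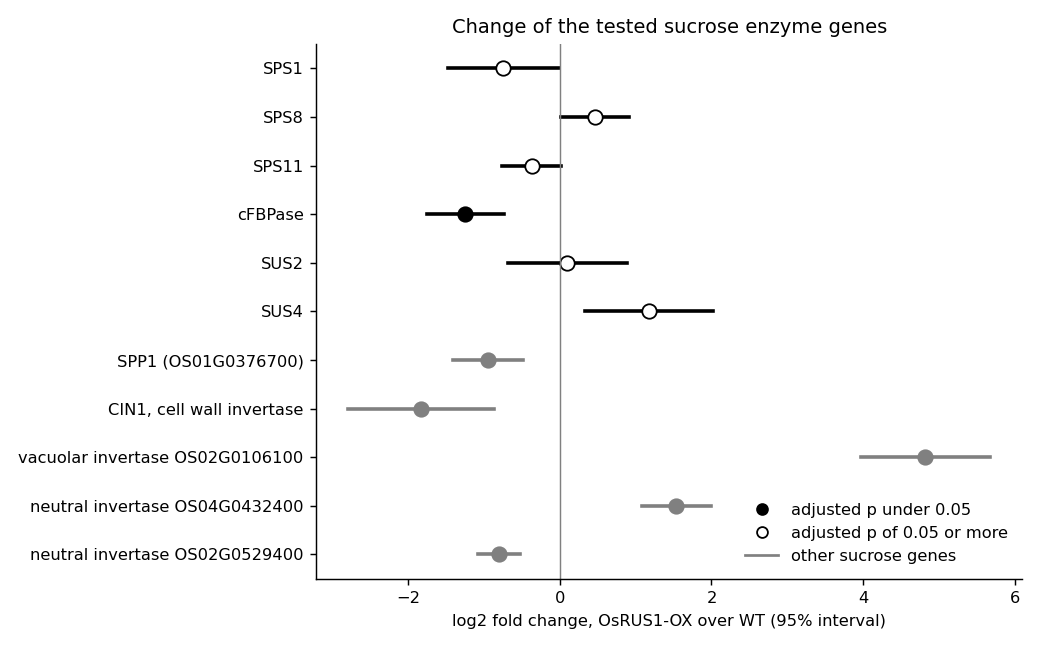
Log2 fold change of OsRUS1-OX over WT, with its unadjusted 95% interval, for the 6 tested members (black) and for 5 other genes of sucrose metabolism (grey). Filled points passed an adjusted p of 0.05 in edgeR. Among the members cFBPase is filled, at -1.25, and the other points are open.

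Among the cleavage enzymes, SUS4 and SUS2 were the expressed sucrose synthase members, both at low levels. SUS4 (OS03G0340500) had 58.3, 87.4 and 78.7 normalized counts in OsRUS1-OX, against 28.2, 51.4 and 19.0 in WT. All OsRUS1-OX libraries lay above all WT libraries, the nearest pair being OsRUS1-OX replicate 1 and WT replicate 2. These values rest on 68, 90 and 94 reads in OsRUS1-OX and on 20, 49 and 18 reads in WT. The mean was 74.8 ± 14.9 in OsRUS1-OX and 32.9 ± 16.7 in WT (SD, n = 3 each), a ratio of 2.26. The log2 fold change was 1.17 (SE 0.37, 95% interval 0.33 to 2.02), and its adjusted p of 0.053 in edgeR was just over the threshold.

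The call of SUS4 depended on the processing. It passed in 7 of the 15 other settings, with adjusted p-values of 0.01 to 0.16 over the 15. The lowest came without WT replicate 2, where the log2 fold change was 1.68. SUT1 (OS03G0170900), a sucrose transporter and the only phloem marker used here, was also higher in OsRUS1-OX. It had 2535, 3939 and 3506 normalized counts in OsRUS1-OX and 566, 1825 and 892 in WT (log2 fold change 1.60, adjusted p = 0.023 in edgeR). WT replicate 2 was the highest WT library for SUT1 as it was for SUS4. The part of phloem cells in the SUS4 values was not tested, and 1 marker that itself handles sucrose cannot measure it.

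SUS2 (OS06G0194900) had 104, 126 and 142 normalized counts in OsRUS1-OX, against 66.2, 180.4 and 97.2 in WT. The WT libraries spanned the whole OsRUS1-OX range. The mean was 124 ± 19.4 in OsRUS1-OX and 115 ± 59.0 in WT (SD, n = 3 each). The log2 fold change was 0.10 (SE 0.34, 95% interval -0.68 to 0.89) with an adjusted p of 0.86 in edgeR, so that neither direction could be given. Without WT replicate 2 it was 0.59 and without WT replicate 1 it was -0.16.

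SUS1 (OS03G0401300) and SUS3 (OS07G0616800) were at the limit of detection in flag leaves of both genotypes. SUS1 had 1, 0 and 0 reads in OsRUS1-OX and 0, 2 and 0 reads in WT. SUS3 had 0, 0 and 0 reads in OsRUS1-OX and 0, 2 and 0 reads in WT. The WT reads of both genes came from WT replicate 2. For features of their lengths, 3 counts in 1 library are 0.135 to 0.209 FPKM for SUS1 and 0.08 to 0.124 FPKM for SUS3, so no difference between genotypes was detectable at this depth.

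Levels of different genes were compared in the deposited FPKM, read counts divided by feature length and by the library's total. cFBPase averaged 160.3 ± 16.1 FPKM in OsRUS1-OX and 362 ± 105 in WT (SD, n = 3 each here and below), the highest mean of the members in both genotypes. SPS1 averaged 127 ± 6.61 FPKM in OsRUS1-OX and 205 ± 93.2 in WT. SPS11 averaged 84.8 ± 7.05 FPKM in OsRUS1-OX and 104 ± 19.8 in WT. SPS8 averaged 47.7 ± 10.03 FPKM in OsRUS1-OX and 33.04 ± 5.64 in WT.

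The sucrose synthases lay far below. SUS2 averaged 3.94 ± 0.636 FPKM in OsRUS1-OX and 3.46 ± 1.72 in WT, and SUS4 averaged 3.40 ± 0.666 in OsRUS1-OX and 1.41 ± 0.680 in WT. In OsRUS1-OX, the single libraries kept the order cFBPase, SPS1, SPS11, SPS8 without overlap, while the ranges of SUS2 and SUS4 overlapped. In WT, SPS1 spanned 98.2 to 267 FPKM and overlapped both SPS11, at 92.3 to 127, and cFBPase, at 254 to 463. Within each WT library cFBPase was above SPS1, while SPS1 was below SPS11 in WT replicate 2 only. The ranges of SUS2 and SUS4 overlapped in WT as well, although SUS2 was above SUS4 within each of the 6 libraries.

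This order depends on the feature lengths. The FPKM and counts of SPS1 imply a length of 294 bases, and 2.34% of the tested features were as short or shorter. SPS8 had 3857 bases and SPS11 had 1818. In normalized counts, SPS8 over SPS11 was 0.903, 1.61 and 1.13 in OsRUS1-OX and 0.844, 0.444 and 0.816 in WT. SPS8 was thus the higher of the pair in OsRUS1-OX replicates 2 and 3. By reads alone SPS1 had 462 to 513 counts in OsRUS1-OX and 339 to 848 in WT, the lowest of the 3 expressed sucrose phosphate synthase members in all 6 libraries. These counts are not divided by length, so they do not place SPS1 below the others in level. Fold changes between genotypes are not altered by dividing by length. The reads and fold change of SPS1 nevertheless come from a feature of 294 bases only.

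Sums and shares were taken over the members of each enzyme alone. The sucrose phosphate synthase members summed to 260.2, 267.4 and 252.5 FPKM in OsRUS1-OX, against 381.7, 251.7 and 394.4 in WT, where replicate 2 lay below all OsRUS1-OX libraries. This sum rests on the 294 bases of SPS1, which made up 47.5% to 50.3% of it in OsRUS1-OX and 39.0% to 67.6% in WT. In normalized counts, which are not divided by length, the sum was 4035 to 4679 in OsRUS1-OX and 4379 to 4761 in WT, and the genotypes overlapped. By FPKM, SPS8 made up 14.9%, 21.9% and 18.3% of that sum in OsRUS1-OX, against 9.7%, 10.6% and 9.0% in WT, and the genotypes did not overlap. Its mean share was 18.3% ± 3.51 in OsRUS1-OX and 9.75% ± 0.780 in WT. SPS1 made up 49.0% ± 1.40 in OsRUS1-OX and 57.5% ± 16.1 in WT, where replicate 2 was at 39.0% and the mean without it was 66.8%. SPS11 made up 32.7% ± 3.35 in OsRUS1-OX and 32.7% ± 15.3 in WT, where replicate 2 was at 50.4% and the mean without it was 23.9%. The WT share of SPS8 without replicate 2 was 9.35%.

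The ratio of SPS8 to SPS11 needs no scaling between libraries. Its size depends on the lengths of both features, but its comparison between genotypes does not. In FPKM it was 0.426, 0.759 and 0.533 in OsRUS1-OX, against 0.398, 0.209 and 0.385 in WT. The genotypes did not overlap, although the nearest pair, OsRUS1-OX replicate 1 and WT replicate 1, were close. With 3 libraries against 3, an exact permutation test cannot go below p = 0.10, and none was run on the shares and ratios.

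**Figure D3:**
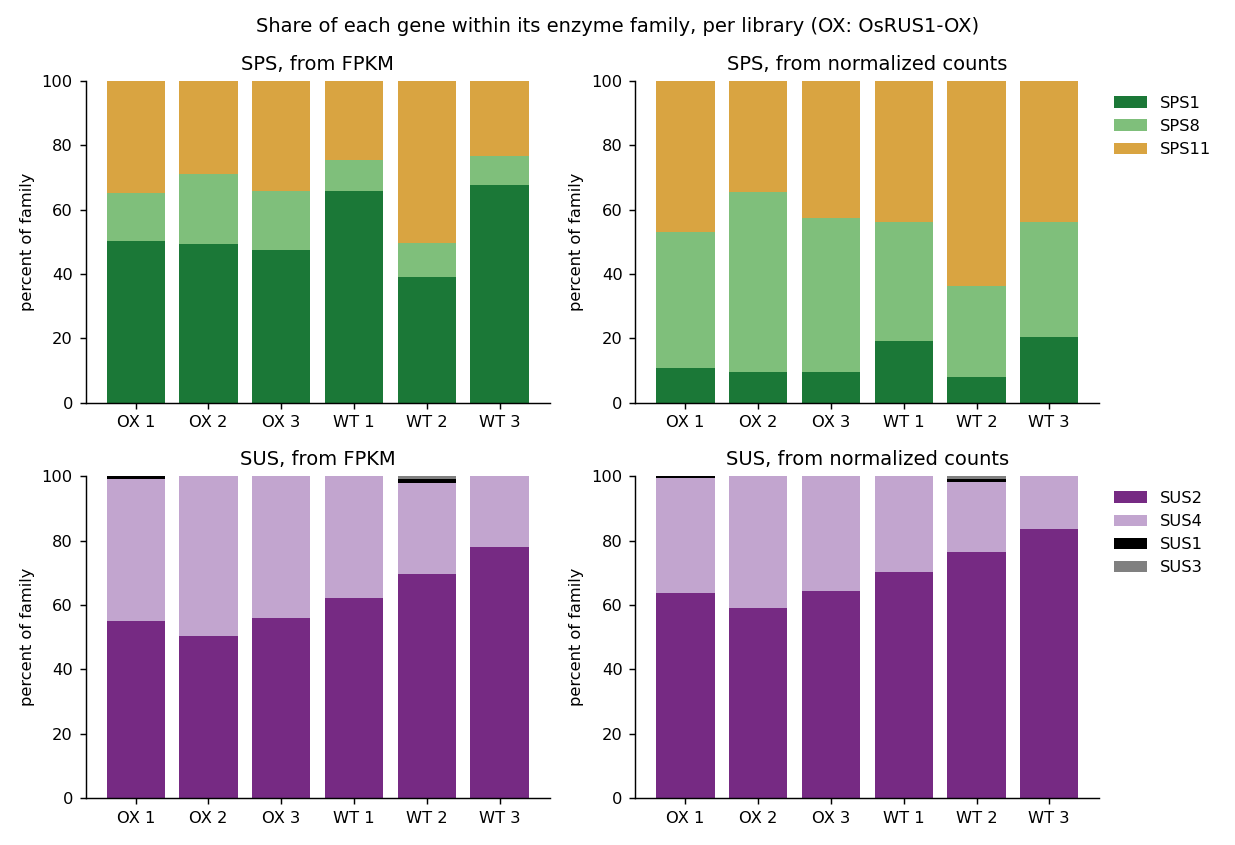
Percent of the sum over the sucrose phosphate synthase members (top) and the sucrose synthase members (bottom) taken by each gene in each library, with OsRUS1-OX left of WT, from FPKM (left) and from normalized counts, which are not per length (right). SPS8 takes 14.9% to 21.9% in OsRUS1-OX and 9.0% to 10.6% in WT by FPKM. The SPS1 part shrinks when the short length is not divided out.

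The sucrose synthase members summed to 5.99, 7.90 and 8.18 FPKM in OsRUS1-OX, against 3.14, 7.66 and 3.96 in WT, where replicate 2 lay within the OsRUS1-OX range. SUS4 made up 44.2%, 49.8% and 44.2% of it in OsRUS1-OX, against 37.8%, 28.3% and 21.9% in WT. The share was higher in every OsRUS1-OX library than in any WT library. Its mean was 46.1% ± 3.21 in OsRUS1-OX and 29.3% ± 8.03 in WT, and SUS2 made up 53.7% ± 3.02 in OsRUS1-OX and 69.9% ± 7.99 in WT. The FPKM ratio of SUS4 to SUS2 was 0.804, 0.991 and 0.791 in OsRUS1-OX and 0.609, 0.408 and 0.28 in WT. WT replicate 2, in which both genes were high, lay between the other WT libraries in this ratio.

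The ratio of summed sucrose phosphate synthase to summed sucrose synthase was 43.4, 33.9 and 30.9 in OsRUS1-OX, against 122, 32.9 and 99.6 in WT, in FPKM. WT replicate 2 lay within the OsRUS1-OX range, and the other WT libraries lay above it. These values rest on the SPS1 length too. With SPS8 and SPS11 alone over the sucrose synthases, the ratio was 21.6, 17.2 and 16.2 in OsRUS1-OX, against 41.4, 20.0 and 32.3 in WT, and the genotypes overlapped through the same library. It still rests on the recovered lengths of the genes in it.

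The spread among the WT libraries was larger than among the OsRUS1-OX libraries for every tested member but SPS8. The coefficient of variation of SPS1 was 6.08% in OsRUS1-OX and 43.9% in WT, where counting alone would give 4.55% and 4.04%. For cFBPase it was 9.65% in OsRUS1-OX and 29.8% in WT, and for SPS11 7.68% in OsRUS1-OX and 21.6% in WT. For SUS2 it was 15.6% in OsRUS1-OX and 51.5% in WT, and for SUS4 19.9% in OsRUS1-OX and 50.8% in WT. SPS8 varied by 21.8% in OsRUS1-OX and 16.4% in WT. Without WT replicate 2, a comparison chosen after seeing the data, the WT value was 1.26% for SPS1, 5.98% for SPS11 and 8.34% for SPS8, each below the value in OsRUS1-OX. It was 21.2% for cFBPase, 26.9% for SUS2 and 27.4% for SUS4, each above the value in OsRUS1-OX. These WT values rest on the 2 remaining libraries, and the spreads are given as a description, without a test. WT replicate 2 was an extreme for every tested member, which favours a smaller spread without it. The spread without another WT library, and the spread over all features, were not computed. These values therefore do not show that the WT spread comes from WT replicate 2.

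**Figure D4:**
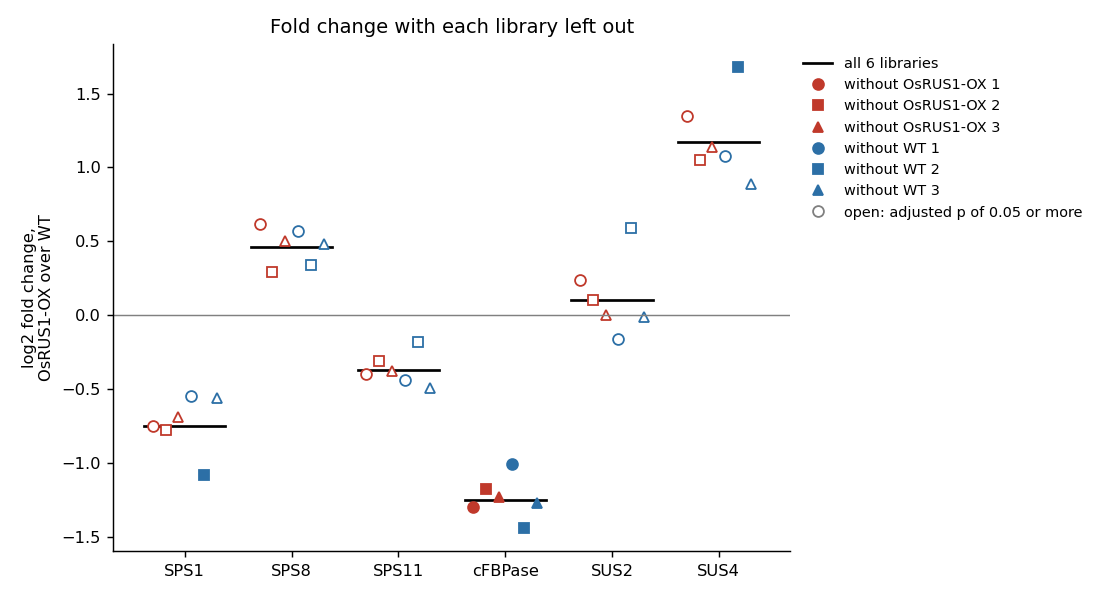
Log2 fold change of OsRUS1-OX over WT for the 6 tested members when each library is left out in turn. Lines give the value with all 6 libraries, shapes and colours give the library left out, and open symbols did not pass an adjusted p of 0.05. Leaving out WT replicate 2 (blue squares) fills SPS1 at -1.08 and SUS4 at 1.68, and cFBPase is filled throughout.

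Beside the members, 22 further gene identifiers of sucrose synthesis and cleavage were taken as a list. Of these, 15 were tested, 5 had no read and 2 had too few. In OsRUS1-OX 2 were called higher and 3 lower, which is 33.3% of those tested against 23.6% of all features, and 10 did not pass. Their median log2 fold change was -0.16, with a range from -1.83 to 4.82. The 5 called genes are annotated in tables of the study that list genes by their change in these libraries, so their names are not independent of it.

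On the synthesis side, SPP1 (OS01G0376700), a sucrose phosphate phosphatase, fell. It had 290, 278 and 237 normalized counts in OsRUS1-OX, against 666, 395 and 495 in WT. The genotypes did not overlap, and the log2 fold change was -0.95 (SE 0.20, adjusted p = 0.012 in edgeR). Without OsRUS1-OX replicate 3 its adjusted p was 0.058. In WT replicate 2, SPP1 was the lowest WT value, as was cFBPase.

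On the cleavage side, the largest change was in a vacuolar invertase, OS02G0106100. It had 2578, 3925 and 2985 normalized counts in OsRUS1-OX, against 155, 55.6 and 128 in WT, a log2 fold change of 4.82 (SE 0.37, adjusted p = 0.00033 in edgeR). In OsRUS1-OX it averaged 113 ± 23.8 FPKM, above SPS11 and far above the sucrose synthases, and in WT it averaged 3.86 ± 1.76 FPKM. Of the neutral invertases, enzymes that cleave sucrose outside the vacuole and the cell wall, OS04G0432400 rose to 2312, 3838 and 3605 normalized counts in OsRUS1-OX, against 1124, 1054 and 1194 in WT (log2 fold change 1.53, SE 0.20, adjusted p = 0.0018 in edgeR). OS02G0529400 fell to 205, 205 and 201 in OsRUS1-OX, against 334, 388 and 345 in WT (log2 fold change -0.80, SE 0.12, adjusted p = 0.0032 in edgeR). The cell wall invertase CIN1 (OS02G0534400) fell to 31.7, 9.71 and 23.5 in OsRUS1-OX, against 80.3, 98.6 and 55.0 in WT (log2 fold change -1.83, SE 0.41, adjusted p = 0.017 in edgeR). Without OsRUS1-OX replicate 3 its adjusted p was 0.06.

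The called invertases moved in both directions, and OS02G0106100 and cFBPase changed in opposite directions. The ratio of the normalized counts of OS02G0106100 to those of cFBPase was 0.924, 1.7 and 1.21 in OsRUS1-OX, against 0.0197, 0.0129 and 0.022 in WT. These counts are not divided by length, so the ratio compares genotypes and does not rank the genes. By FPKM, OS02G0106100 averaged 113 in OsRUS1-OX, below the 160.3 of cFBPase. The pair was picked for its opposite changes, so the split of the genotypes in this ratio is no further result. The other 10 tested identifiers of the list had log2 fold changes that did not pass. The sources used here do not annotate them, so they are given without an enzyme name. Among them OS09G0553200 averaged 55.4 FPKM in OsRUS1-OX and 59.3 in WT, with a log2 fold change of -0.16 (adjusted p = 0.77 in edgeR). OS01G0894300 averaged 42.6 FPKM in OsRUS1-OX and 31.8 in WT (log2 fold change 0.36, adjusted p = 0.18), and OS02G0143100 averaged 33.9 FPKM in OsRUS1-OX and 42.5 in WT (log2 fold change -0.39, adjusted p = 0.28). OS02G0184400 averaged 8.88 FPKM in OsRUS1-OX and 8.36 in WT (0.02 on the log2 scale, adjusted p = 0.93), and OS05G0438600 averaged 5.62 FPKM in OsRUS1-OX and 6.87 in WT (-0.35, adjusted p = 0.35). OS02G0831500 averaged 0.385 FPKM in OsRUS1-OX and 0.464 in WT and was not tested.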

How the data were processed

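RNA from 6 flag leaf pools, 3 of OsRUS1-OX and 3 of WT, was poly-A selected and sequenced in pairs on an Illumina HiSeq. The authors mapped the read pairs with TopHat2 (2.0.12 per the submitters' processing notes) on the rice assembly of Ensembl Plants and assigned them to genes with HTSeq (0.6.1). The deposited counts are raw whole numbers. The authors derived the deposited FPKM from these counts with the length of each gene. How HTSeq treated strand and overlapping genes was not given in the sources used here, so overlapping genes may share reads.

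The test was the quasi-likelihood test of edgeR 4.0.16 (R 4.3.3) after TMM scaling and filterByExpr by genotype, where the study used DESeq. P-values were adjusted by Benjamini-Hochberg over 19694 features and called under 0.05. Alternatives were DESeq2 1.42.0, limma 3.58.1 on FPKM after log2 with pseudocounts of 1 and 0.1 (with a filter at an FPKM of 1 and without), other scalings and count filters, a block for the replicate number, and fits without each library. Feature lengths were recovered from counts and FPKM. Scripts were tested on simulated data. Intervals of fold changes come from the spread between libraries, and floors of 3 counts cover counting error only.

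The 9 members and the gene lists were chosen with earlier results of these data known. All members were named, and of the list of 22 identifiers those past the threshold and the one of highest mean FPKM in each enzyme group. That list was written by identifier, since the reference table used here had no product names. The reference table paired 7 of the 9 members with the symbols used here, and SPS1 and SPS11 were named from the member list alone. That table has no entry named SPS11 and gives the symbol SPS1 to a gene on another chromosome than OS01G0919400, so the name SPS1 is in doubt. Sequences were not used here.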

Additional observations from a re-analysis of the deposited data

How the results depend on the processing

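Of 90 fold changes of the 6 tested members under other settings, 79 kept their direction and side of the threshold, 8 gained a call and 3 reversed. SUS4 gained its call with DESeq2 (1.19), library totals alone (1.25), no filter on low counts (1.21), at least 10 counts in every library (1.19), limma on log2(FPKM + 1) (0.89) and the replicate block (1.25), which put 1 member higher and 2 members in all past the threshold. Without 1 library each, the log2 fold change of SUS4 ran from 0.89 to 1.68, of SPS1 from -1.08 to -0.55 and of SUS2 from -0.16 to 0.59, with SUS2 reversed without WT replicate 1 (-0.16), WT replicate 3 (-0.01) and OsRUS1-OX replicate 3 (0.00). These fits called 0 to 1 members higher, 1 to 2 lower and 1 to 3 in all (3 without WT replicate 2). They called 1354 to 2602 features higher, 1045 to 2617 lower and 2399 to 5219 in all, beside 2328, 2316 and 4644 with all libraries. Of the pathway list they called 1 to 4 lower and 3 to 6 in all, with 1 and 3 without OsRUS1-OX replicate 3. limma on log2(FPKM + 0.1) called 1533 features lower, and limma without a filter called 1266 lower and, of the list, 1 lower and 3 in all. Of the calls, 50.1% were higher in OsRUS1-OX, against 58.8% with library totals alone, 59.2% and 59.1% with limma at the pseudocounts 1 and 0.1, and 61.4% with limma without a filter. With normalized counts in place of FPKM, SPS1 made up 10% of the sucrose phosphate synthase members' sum in OsRUS1-OX and 15.9% in WT, SPS8 48.7% and 33.7%, SPS11 41.3% and 50.4%, and, in OsRUS1-OX, SUS2 62.4% and SUS4 37.4%. The causes of these differences were not tested.

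Libraries with equal replicate numbers came from different plants, and their deviations from the genotype means correlated by 0.125, -0.0914 and 0.112, so the numbers were not taken as pairs. With the replicate block, 4013 features were called, and SUS4 had an adjusted p of 0.038 in edgeR. SPS6, SUS1 and SUS3 were too low to compare at this depth. P-values set the difference between 1 transgenic line and its WT against the spread among pools within each genotype, and do not cover other lines.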
